A study of Mus musculus with 6 samples.

Results

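Macrophages, monocytes and neutrophils are the phagocytes of the lung, and the genes described here mark them in RNA from 4 lung tumors of the RPM mouse and 2 samples of normal lung. The genes were chosen by symbol from the table of gene counts, in 3 groups that mark alveolar macrophages, other macrophages or monocytes, and neutrophils. The list held 33 symbols for 32 genes, since Adgre1 and Emr1 are names of 1 gene. The table of 22477 gene rows held 30 of them under a listed symbol and 1, Chi3l3, under its current symbol Chil3. Ly6g was not analysed here, which left 7, 15 and 9 genes in the 3 groups.

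Tumors 3, 4, 5 and 6 were labelled RPM lung tumor and normal 1 and 2 normal lung tissue, each from its own mouse and numbered as in the sample titles. All 6 mice carried floxed Rb1 and p53 and a Myc T58A allele behind a lox-stop-lox cassette, and all were labelled as given Ad5CGRP-Cre, a virus whose CGRP promoter directs Cre to neuroendocrine cells. The protocol gives 8 weeks as the age at induction of a first cohort, and the age at tissue collection was not given in the sources used here. That protocol also names arms with entinostat, an inhibitor of histone deacetylases, and with anti-PD-1 antibody, but no arm is given for these samples, so tumor against normal lung was the comparison made. Beyond the wording of the labels, nothing states whether the animals with normal lung had carried tumors.

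Alveolar macrophages settle in the lung around birth and live on the surfactant of the airspace, under the control of the cytokine GM-CSF and the transcription factor PPARγ. Monocytes arrive from the blood and become interstitial or tumor macrophages, which need CSF1 receptor signalling and the transcription factor PU.1. Neutrophils leave the bone marrow with their granule proteins already made, so a mature neutrophil holds little mRNA for many of them.

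Total counts were 54735438 to 70817440 in tumors, against 99122494 and 91049413 in normal 1 and 2. Levels are given as CPM, the count of a gene relative to the library size after scaling by the TMM method. Transcripts that carry no poly(A) tail (the RNase P and RNase MRP RNAs and the precursor of ribosomal RNA) took 5.46% to 13.9% of the counts in tumors, against 0.238% and 0.550% in normal 1 and 2. A list of 12 genes of stratified epithelium, chosen after its values were seen, summed to 1586 CPM in tumor 6, against 2.23 to 3.40 CPM in the other tumors and 6.83 and 10.2 CPM in normal lung. Results that lean on tumor 6 are therefore also given without it.

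Promoters are shown first, as the 120 bases before 1 start of 6 members in which a match to the motif of PU.1, or of C/EBP, the factor family that drives granulocyte genes, lay in that window. Pparg also held a C/EBP match there at 1 of its starts and is not shown. RefSeq promoters of build GRCm38.p6 were found for 26 of the 31 genes, but not for Adgre1, Csf1r, Msr1, Spi1 and Tyrobp. The 250 bases before each start were searched on both strands for GAGGAAGT (PU.1) and TTGCNNAA (C/EBP). The C/EBP letters were found in 10 of the 26 genes, or 38.5%, against 10.8% of all 27025 genes with a promoter, and the PU.1 letters in 2, or 7.69%, against 2.79%. Genes with several starts were counted once, as a match at any start, and the difference between these shares was not tested. The count files use build mm9, so these coordinates belong to the sequence table alone. In the sequences, written 5′ to 3′ on the gene's strand, capitals mark the motif letters.
Cd68, chr11:69666171-69666290, minus strand, C/EBP: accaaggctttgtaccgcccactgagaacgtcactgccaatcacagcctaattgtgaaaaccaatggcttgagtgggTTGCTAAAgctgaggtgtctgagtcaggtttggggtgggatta
Fcgr3, chr1:171059395-171059514, minus strand, C/EBP: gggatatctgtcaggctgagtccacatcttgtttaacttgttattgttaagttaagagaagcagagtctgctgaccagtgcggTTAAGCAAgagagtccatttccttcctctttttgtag
Ear2, chr14:44102534-44102653, plus strand, C/EBP: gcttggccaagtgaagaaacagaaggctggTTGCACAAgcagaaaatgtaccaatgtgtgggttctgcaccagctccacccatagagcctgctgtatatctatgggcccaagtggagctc
Ltf, chr9:111019172-111019291, plus strand, C/EBP: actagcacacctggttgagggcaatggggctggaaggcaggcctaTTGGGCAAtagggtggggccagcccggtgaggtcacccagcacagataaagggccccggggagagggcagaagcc
Ngp, chr9:110419688-110419807, plus strand, C/EBP: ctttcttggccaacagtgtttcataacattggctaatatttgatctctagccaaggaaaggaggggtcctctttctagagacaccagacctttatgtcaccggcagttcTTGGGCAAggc
Ly6c2, chr15:75111938-75112057, minus strand, PU.1: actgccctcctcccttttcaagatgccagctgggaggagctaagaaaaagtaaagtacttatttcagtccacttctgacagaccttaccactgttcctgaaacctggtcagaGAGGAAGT
The genes shown did not share 1 outcome, since Ear2 and Ly6c2 were lower in tumors while Cd68, Fcgr3, Ltf and Ngp did not pass the test. Of the other genes with these letters, Lyz1, Plet1, Pparg and Retnlg were lower, and S100a8 and S100a9 did not pass.

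Of the 31 genes, all of which passed the filter on low counts, 16 were lower and 1 was higher in tumors, and 14 did not pass (edgeR quasi-likelihood test, adjusted p under 0.05). Over all 18027 genes tested, 63.9% passed in either direction, 32.6% lower and 31.3% higher, so the members' 51.6% lower lay above the background and their 3.23% higher below it. Their median log2 fold change was -1.89, against 0.02 over all genes tested. In 19 members every tumor lay below both normal libraries and in 2 every tumor lay above them, against 39.8% and 37.4% of all genes tested. In RNA of whole tissue, fewer cells of a type and less RNA per cell cannot be told apart. The pan-leukocyte list moved with these results, with 8 of 8 genes lower (5 without normal 2) and a summed level of 60.6 to 149 CPM in tumors, against 589.5 and 669 CPM in normal 1 and 2; its part in them was not tested.

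**Figure D1:**
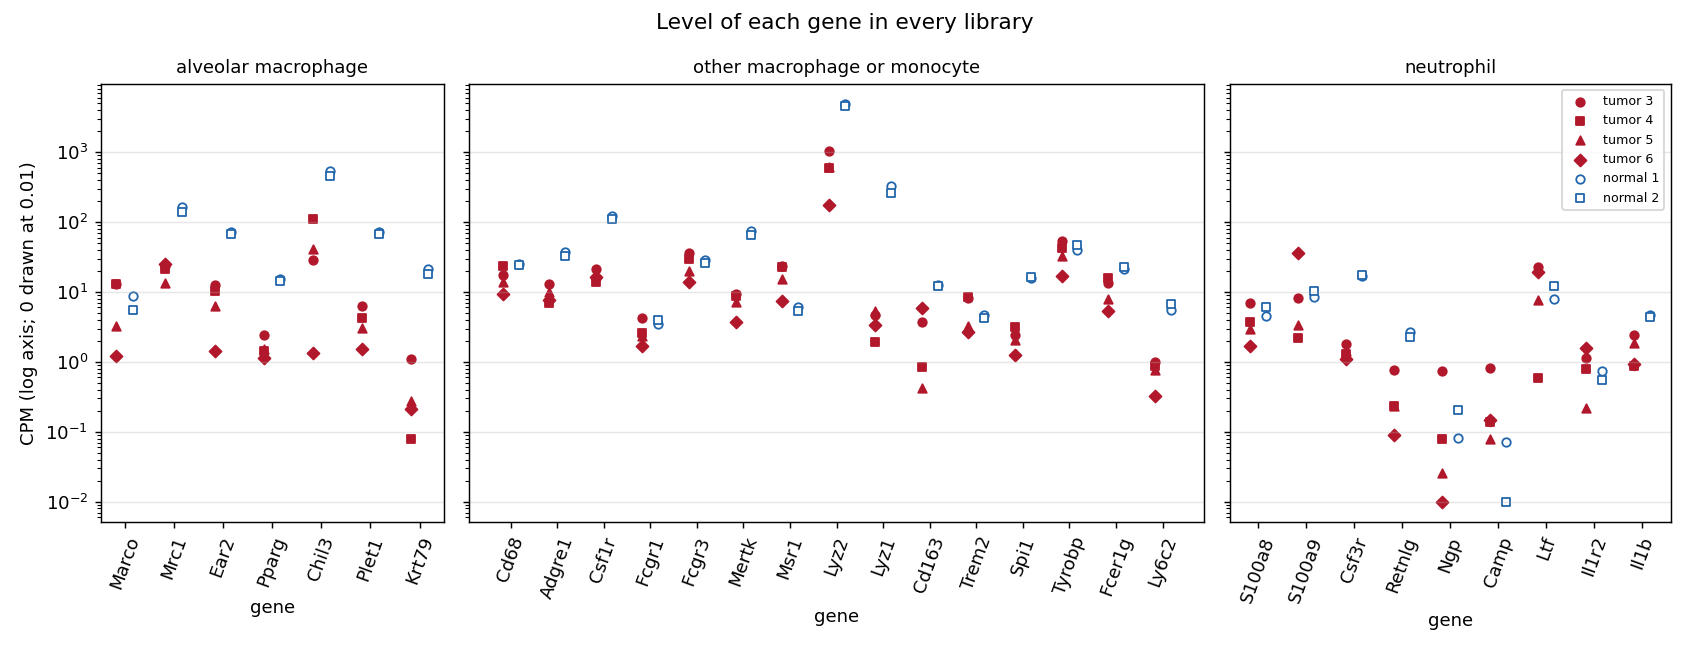
Level of each gene in CPM on a log axis, with filled red points for tumors 3 to 6 and open blue points for normal 1 and 2. Lyz2 is the highest gene in every library, and the points of Msr1 are higher in all 4 tumors than in normal lung.

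Alveolar macrophage genes were lower in tumors, with 6 of 7 past the test and a median log2 fold change of -3.19. Plet1, a surface protein of alveolar macrophages and some epithelia, stood at 6.23, 4.30, 3.03 and 1.54 CPM in tumors 3 to 6, against 73.1 and 67.1 CPM in normal 1 and 2. The groups did not overlap, and Plet1 was 18.6-fold lower (log2 fold change -4.21 ± 0.49 SE, adjusted p = 0.000512 by edgeR). In the GENCODE annotation 13.4% of the exon bases of Plet1 overlap Plet1os on the other strand, whose reads cannot be told apart here. Krt79, a keratin that is transcribed in mouse alveolar macrophages, stood at 1.09, 0.0785, 0.274 and 0.209 CPM in tumors, against 21.3 and 18.1 CPM in normal lung, the largest decrease of the group, 47.2-fold (-5.56 ± 0.91, adjusted p = 0.00202 by edgeR).

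Pparg, the nuclear receptor that sets alveolar macrophage identity, stood at 2.43, 1.45, 1.54 and 1.15 CPM in tumors, against 15.1 and 14.4 CPM in normal lung. It was 8.98-fold lower (-3.17 ± 0.35, adjusted p = 0.000411 by edgeR), and the highest tumor was 2.11 times the lowest. Mrc1, the mannose receptor CD206, was 23.3, 21.6, 13.6 and 25.1 CPM in tumors, against 165 and 139 CPM in normal lung, or 7.28-fold lower. Mrc1 was the one gene of the group that stood highest in tumor 6. Lymphatic endothelial cells also carry Mrc1, but the endothelium list used here held no gene chosen for lymphatic cells. That list was lower in 8 of 8 genes. Its summed levels were 59.3 to 165 CPM in tumors, against 4273 and 3852 CPM in normal 1 and 2. The part of endothelium in the Mrc1 result was not tested.

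Ear2, a ribonuclease of eosinophils and alveolar macrophages, stood at 12.6, 10.3, 6.38 and 1.44 CPM in tumors, against 71.6 and 68.2 CPM in normal lung, 9.11-fold lower. The eosinophil genes Epx and Prg2, chosen for their role, averaged 0.0263 and 0.0429 CPM in tumors, against 0.0260 and 0.101 CPM in normal lung. Such levels are near the limit of detection, since 3 counts make 0.0305 to 0.0589 CPM in these libraries. Of 8 eosinophil, mast cell and basophil genes tested, 4 were lower, and the part of eosinophils in the Ear2 result was not tested. The identity of the Ear2 reads is uncertain, because the rows of its paralogs Ear3 and Ear12 held 0.769 to 0.789 and 0.733 to 0.743 of the Ear2 count in each of the 6 libraries. Chil3, the chitinase-like protein Ym1, ranged most, at 28.5, 112, 41.5 and 1.33 CPM in tumors, against 529 and 456 CPM in normal lung. It was 10.7-fold lower (adjusted p = 0.0415 by edgeR), but it no longer passed without normal 1 (-3.33 on the log2 scale), normal 2 (-3.54), tumor 3 (-3.25) or tumor 5 (-3.37). Chil3 did pass by edgeR without tumor 4 (-4.37, adjusted p = 0.0219) and without tumor 6 (-2.95, adjusted p = 0.00637). Of its 50-base stretches, 26.9% also lie in another gene, mainly Chil4. Chil4 exceeded Chil3 only in tumor 6, by 28.3 times in counts.

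Marco, a scavenger receptor for particles and bacteria, was the one gene of the group that did not pass. It stood at 13.2, 12.9, 3.23 and 1.23 CPM in tumors, against 8.66 and 5.51 CPM in normal lung. Tumors 3 and 4 lay above both normal libraries and tumors 5 and 6 below them, and the mean was 7.64 ± 6.30 CPM (SD, n = 4) in tumors and 7.08 ± 2.22 CPM (n = 2) in normal lung.

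**Figure D2:**
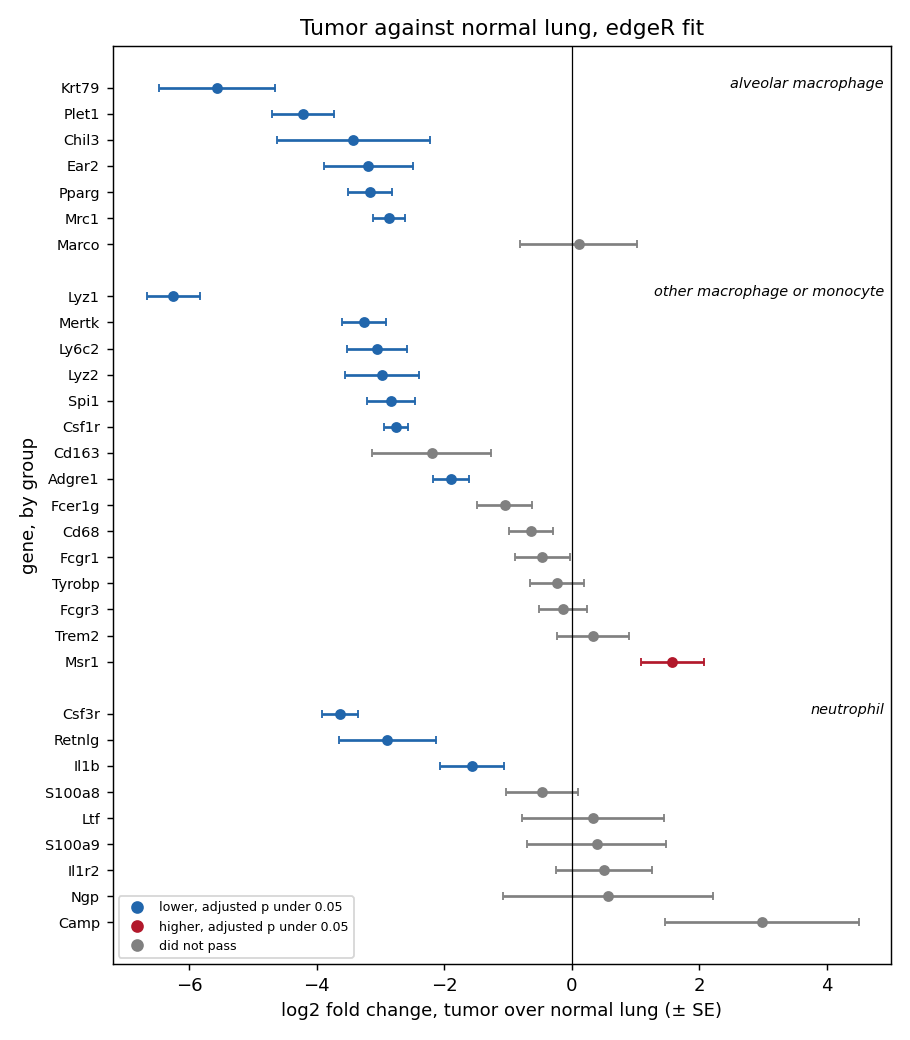
Log2 fold change of each gene, tumor over normal lung, with bars of 1 SE from the edgeR fit, in 3 groups. Blue points were lower and red points higher at an adjusted p under 0.05, and grey points did not pass; the 6 alveolar macrophage genes in blue lie at -2.86 or below.

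The other macrophage and monocyte genes split. Of 15, 7 were lower, 1 was higher and 7 did not pass; the median of their log2 fold changes was -1.89. The genes that were lower included the growth factor receptor, the master regulator and the receptor for dying cells. Csf1r, the receptor for CSF1 and IL-34, stood at 21.2, 13.9, 17.4 and 16.4 CPM in tumors, against 120 and 112 CPM in normal lung. It varied least among tumors in this group, with the highest 1.52 times the lowest, and was 6.75-fold lower (-2.76 ± 0.19, adjusted p = 7.18e-05 by edgeR). In the GENCODE annotation 15.1% of its exon bases overlap Hmgxb3 on the other strand, whose reads cannot be told apart here.

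Spi1, which encodes PU.1, stood at 2.46, 3.12, 2.08 and 1.27 CPM in tumors, against 15.7 and 16.2 CPM in normal lung, 7.15-fold lower. Mertk, a kinase for the uptake of dying cells, stood at 9.21, 8.76, 7.20 and 3.77 CPM in tumors, against 73.7 and 64.5 CPM in normal lung, 9.55-fold lower. Adgre1, which encodes the macrophage antigen F4/80, was closer, at 13.04, 7.03, 10.1 and 7.66 CPM in tumors, against 37.7 and 32.4 CPM in normal lung, 3.70-fold lower. Ly6c2, of inflammatory monocytes, was 8.34-fold lower, at 0.329 to 0.998 CPM in tumors, against 5.59 and 6.72 CPM in normal lung. Ly6c2 shares 14.4% of its 50-base stretches with other genes. Its paralog Ly6c1, which endothelium also expresses, averaged 8.13 ± 3.77 CPM in tumors (SD, n = 4) and 188 ± 3.22 CPM in normal lung (n = 2).

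The lysozyme genes were lower in every tumor than in both normal libraries. Lyz2, lysozyme M of macrophages, stood at 1034, 590, 613 and 176 CPM in tumors, against 4954 and 4555 CPM in normal lung, and was 7.88-fold lower (-2.98 ± 0.58, adjusted p = 0.00425 by edgeR). It held 48.3% to 75.0% of all member counts in a tumor and 75.0% and 75.7% in normal 1 and 2, so a sum over the members is mostly Lyz2. Per kilobase of exon it was also the highest member, with a mean level of 458 CPM per kb in tumors and 3613 in normal lung. Lyz1, lysozyme P, stood at 4.75, 1.92, 5.39 and 3.34 CPM in tumors, against 328 and 259 CPM in normal lung, 76.0-fold lower (-6.25 ± 0.41, adjusted p = 6.78e-05 by edgeR). The ratio of Lyz1 to Lyz2 counts was 0.00326 to 0.0189 in tumors, against 0.0662 and 0.0569 in normal 1 and 2. The pair shares 15.4% of the 50-base stretches of Lyz2 and 16.1% of those of Lyz1, so a part of the reads cannot be assigned to one of them.

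Both lysozyme genes are also transcribed in mouse alveolar type 2 cells. The alveolar epithelium list was lower in 8 of 8 genes, with summed levels of 83.0 to 719 CPM in tumors, against 23412 and 21660 CPM in normal 1 and 2. The list peaked in tumor 5, Lyz2 in tumor 3 and Lyz1 in tumor 5, and the lowest levels were those of tumor 6 for the list and Lyz2 and of tumor 4 for Lyz1. Its part in the lysozyme results was not tested.

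Msr1, the class A scavenger receptor of macrophages, was the one member past the test in the other direction. It stood at 23.2, 23.0, 15.4 and 7.39 CPM in tumors, against 6.10 and 5.43 CPM in normal lung. All 4 tumors lay above both normal libraries, and Msr1 was 2.99-fold higher (1.58 ± 0.50, adjusted p = 0.0288 by edgeR). It no longer passed by edgeR without normal 1 (1.65 on the log2 scale, adjusted p = 0.121), normal 2 (1.48, 0.145) or tumor 3 (1.41, 0.0601), and the count of members higher was then 0.

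The Fc receptor, adaptor and lysosome genes of the group did not pass. Fcgr3, a low-affinity IgG receptor, stood at 36.3, 29.6, 19.6 and 14.1 CPM in tumors, against 28.4 and 26.1 CPM in normal lung. It shares 9.58% of its 50-base stretches with Fcgr2b. Tyrobp, the DAP12 adaptor that carries the signal of TREM2 and other receptors, stood at 54.1, 43.2, 32.6 and 16.8 CPM in tumors, against 39.5 and 46.6 CPM. Trem2, a lipid receptor of tumor and tissue macrophages, stood at 8.24, 8.44, 3.27 and 2.68 CPM, against 4.74 and 4.23 CPM. In each of these 3 genes the normal libraries lay within the range of the tumors.

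Fcgr1, the high-affinity IgG receptor, averaged 2.71 ± 1.07 CPM in tumors and 3.72 ± 0.277 CPM in normal lung (SD, n = 4 and 2). Cd68, a lysosomal membrane protein, stood at 17.4, 23.2, 14.1 and 9.45 CPM in tumors, against 25.4 and 24.5 CPM. Every tumor was below both normal libraries, yet the log2 fold change of -0.64 ± 0.35 did not pass (adjusted p = 0.145 by edgeR), except without tumor 4 (-0.87, adjusted p = 0.0371). Fcer1g, the Fc receptor gamma chain, averaged 10.7 ± 4.87 CPM in tumors and 22.1 ± 1.03 CPM in normal lung (SD, n = 4 and 2), 2.07-fold lower, and did not pass (adjusted p = 0.0708 by edgeR). It passed with total counts (-1.09), with limma voom (-1.21) and without tumor 4 (-1.30).

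Cd163, the hemoglobin scavenger receptor, split the tumors, at 3.67, 0.844, 0.430 and 5.85 CPM, against 12.6 and 12.2 CPM in normal lung. Tumors 3 and 6 lay above tumors 4 and 5, and all 4 lay below normal lung. Its log2 fold change of -2.20 ± 0.93 did not pass (adjusted p = 0.0764 by edgeR), but passed with DESeq2 (-2.16), with limma voom (-2.88) and without tumor 6 (-2.80).

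Counts were also set against that of Ptprc, the gene of the leukocyte antigen CD45, within each library. Ptprc stood at 30.0, 17.6, 21.4 and 13.5 CPM in tumors, against 151 and 186 CPM in normal lung, and was itself 8.18-fold lower. A gene that fell less than Ptprc, such as Adgre1, therefore stands higher per Ptprc count in tumors by construction. Msr1 had 0.773, 1.30, 0.720 and 0.549 counts per Ptprc count in tumors, against 0.0404 and 0.0291 in normal lung. Trem2 had 0.153 to 0.479 in tumors, against 0.0314 and 0.0227, Tyrobp 1.25 to 2.45, against 0.262 and 0.250, and Fcgr3 0.919 to 1.68, against 0.188 and 0.140. Csf1r had 0.705 to 1.216, against 0.796 and 0.602, and Spi1 0.0819 to 0.177, against 0.104 and 0.0870, so that the groups overlapped. The ratios are a description of these libraries, and no test was made of them.

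**Figure D3:**
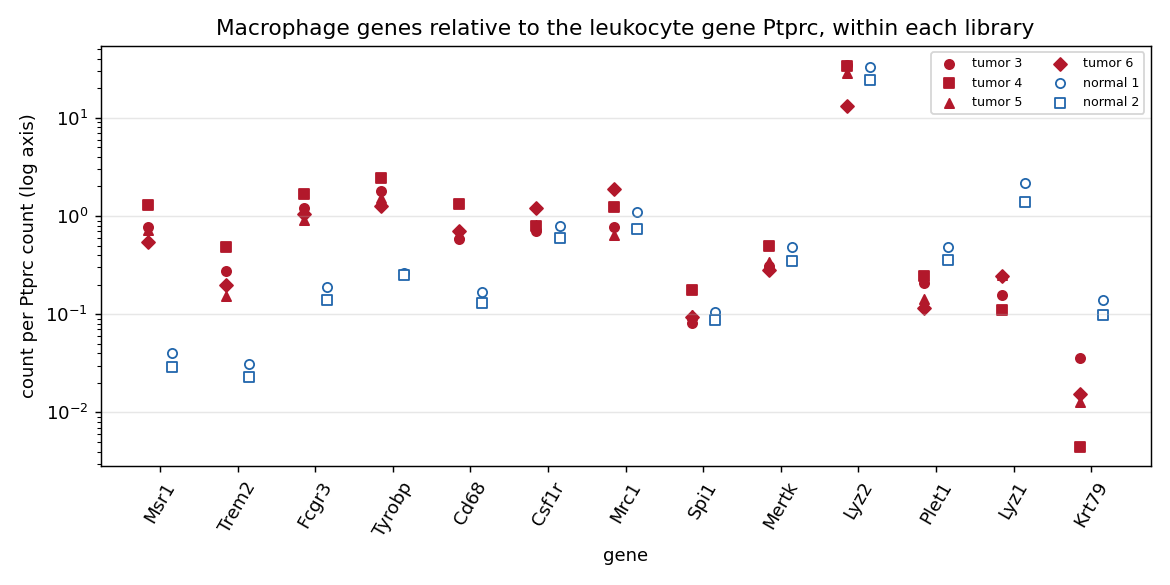
Counts of 13 macrophage genes, chosen after their values were seen, per count of Ptprc in each library on a log axis, with tumors in filled red and normal lung in open blue. Msr1, Trem2, Fcgr3, Tyrobp and Cd68 are higher per Ptprc count in all 4 tumors, whereas the groups overlap for Csf1r, Spi1 and Lyz2, and Lyz1, Plet1 and Krt79 are lower in all 4; Ptprc itself was 8.18-fold lower in tumors.

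Of the 9 neutrophil genes 3 were lower and 6 did not pass. Their 33.3% lower was near the 32.6% over all genes tested, and the median of their log2 fold changes was 0.33. Without normal 1, and likewise without normal 2, 1 of the 9 was lower. Csf3r, the receptor for G-CSF, stood at 1.77, 1.28, 1.45 and 1.11 CPM in tumors, against 16.9 and 17.8 CPM in normal lung. The highest tumor was 1.60 times the lowest, and Csf3r was 12.4-fold lower (-3.63 ± 0.28, adjusted p = 0.000117 by edgeR). Csf3r shares 10.5% of its 50-base stretches with other genes. Retnlg, a resistin-like protein of mature neutrophils, stood at 0.760, 0.236, 0.234 and 0.0898 CPM in tumors, against 2.65 and 2.27 CPM in normal lung, 7.41-fold lower. Il1b, the inflammatory cytokine, stood at 2.46, 0.864, 1.86 and 0.942 CPM in tumors, against 4.71 and 4.38 CPM, 2.96-fold lower. Retnlg lost its call without normal 1 (-2.78) or normal 2 (-3.01), and Il1b without normal 1 (-1.53), normal 2 (-1.64), tumor 5 (-1.67) or tumor 6 (-1.29).

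S100a8 and S100a9 encode the subunits of calprotectin, the main cytosolic protein of neutrophils, and are normally made together. S100a8 stood at 7.05, 3.67, 2.94 and 1.68 CPM in tumors, against 4.55 and 6.06 CPM in normal lung, with tumor 3 above both normal libraries and the other tumors below. S100a9 stood at 8.12, 2.22, 3.39 and 36.0 CPM in tumors, against 8.58 and 10.4 CPM in normal lung. The ratio of S100a9 to S100a8 counts was thus 21.5 in tumor 6 and 0.604 to 1.15 in the other tumors, against 1.89 and 1.71 in normal 1 and 2. Tumor 6 had the highest S100a9 and the lowest S100a8 of the 6 libraries. The log2 fold change of S100a9 was 0.39 ± 1.09 with tumor 6 and -0.95 without it, and neither passed.

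Ltf, the iron-binding granule protein lactoferrin, stood at 22.5, 0.589, 7.78 and 19.4 CPM in tumors, against 7.90 and 12.0 CPM in normal lung. Tumors 3 and 6 lay above both normal libraries, and the highest tumor was 38.2 times the lowest. Il1r2, the decoy receptor for interleukin 1, stood at 1.13, 0.785, 0.221 and 1.56 CPM, against 0.742 and 0.550 CPM. Without tumor 6 the log2 fold changes of Ltf and Il1r2 were 0.16 and 0.23, against 0.33 and 0.51 with it. The 21 other neutrophil genes tested had their lowest mean log2(CPM + 1) in tumor 6, at 0.947. It was 1.20 to 1.62 in the other tumors and 2.85 and 2.84 in normal lung. S100a9 and Ltf are made by epithelia as well, and the stratified epithelium list peaked in tumor 6, as given above. S100a8, in contrast, was lowest of all libraries in tumor 6, at 1.68 CPM. Of the 12 genes of the stratified epithelium list, Sprr3 and Krtdap had no counts in any other library. The part of that list in the S100a9, Ltf and Il1r2 levels was not tested.

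Ngp and Camp, granule proteins that neutrophil precursors make in the marrow, were near the limit of detection. Ngp had 50, 4, 2 and 0 counts in tumors 3 to 6, against 8 and 19 in normal 1 and 2. Camp had 55, 7, 6 and 10 counts, against 7 and 0. Tumor 3 held most of the tumor counts of both. The count of 0 allows a level of up to 0.0449 CPM for Ngp in tumor 6 and 0.0324 CPM for Camp in normal 2, from 3 counts and for counting error alone. Neither gene passed (adjusted p = 0.777 and 0.127 by edgeR).

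**Figure D4:**
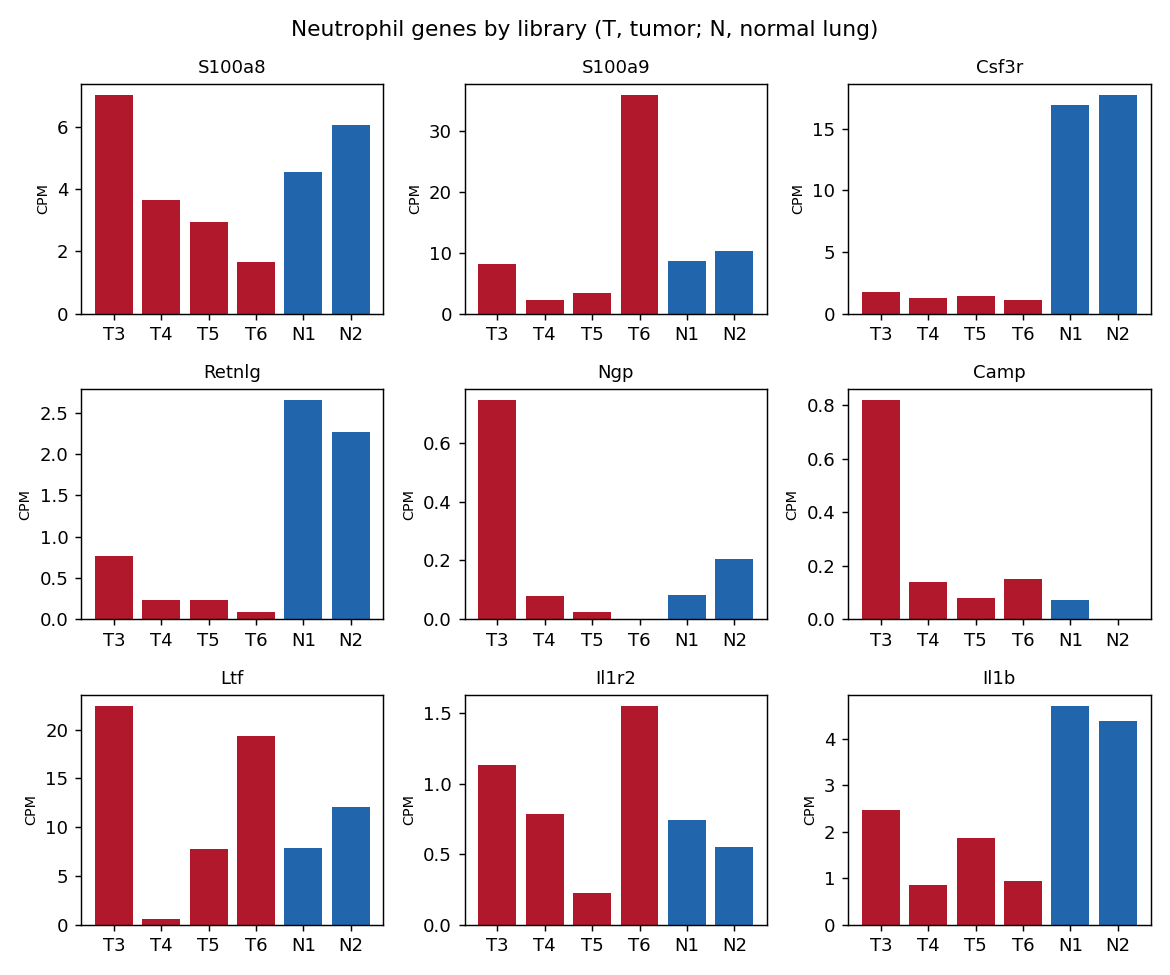
CPM of the 9 neutrophil genes in tumors 3 to 6 (red) and normal 1 and 2 (blue), each panel on its own linear axis from 0. Csf3r is low in all 4 tumors, S100a9 is highest in tumor 6 at 36.0 CPM, and Ngp and Camp are highest in tumor 3.

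The members varied among the tumors, without 1 order for all of them. Tumor 3 was the highest tumor in 21 of 31 genes and tumor 6 the lowest in 20, which included 11 of the 15 other macrophage or monocyte genes but 4 of the 9 neutrophil genes. The summed level of the alveolar macrophage genes was highest in tumor 4, at 163 CPM, of which Chil3 alone held 112 CPM. That of the neutrophil genes was highest in tumor 6, at 60.9 CPM, mostly S100a9 (36.0) and Ltf (19.4). Without tumor 6 the neutrophil sum was highest in tumor 3, at 45.3 CPM. The mean log2(CPM + 1) was highest in tumor 3 in both groups, at 3.25 and 1.95. The numbers of genes highest or lowest in each tumor were not counted over all genes. The ratio of the highest to the lowest tumor was taken over genes with counts in every tumor. Its median was 8.75 over the 7 alveolar macrophage genes, 2.80 over the 15 other macrophage genes and 7.75 over 8 neutrophil genes. Over 17347 other genes tested the median was 1.79. Those genes were not matched to the members in level, and some members had few counts, such as Krt79 with 4 in tumor 4. Summed levels of the pan-leukocyte list were 149, 117, 105 and 60.6 CPM in tumors 3 to 6.

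Other genes of the same cells and pathways were counted from 9 lists, and over all genes tested 32.6% were lower and 31.3% higher. Of 182 distinct genes tested, 116 were lower and 10 higher in tumors, and the 10 became 3 without normal 1 and 4 without normal 2. Of 17 other alveolar macrophage genes, 11 were lower and 2 higher, with a median log2 fold change of -2.11. Siglecf, the lectin that marks these cells, averaged 0.335 ± 0.229 CPM in tumors and 13.8 ± 2.02 CPM in normal lung (SD, n = 4 and 2) and was 41.0-fold lower (-5.36 ± 0.70, adjusted p = 0.000808 by edgeR). Lpl, a lipase that frees fatty acids, was 4.33-fold lower. The carbonic anhydrase gene Car4, which lung endothelium also expresses, was 128-fold lower. The genes that were higher encode the fatty acid binding proteins Fabp5 (2.12 ± 0.25) and Fabp4 (1.67 ± 0.60), and 1 was higher without normal 1, normal 2, tumor 3 or tumor 6 and with limma voom.

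Of 24 other macrophage and monocyte genes, 11 were lower (7 without normal 2) and 3 higher (0 without normal 1 or normal 2, 5 without tumor 6). Cd14, a receptor for bacterial lipopolysaccharide, averaged 2.98 ± 1.30 CPM in tumors and 22.6 ± 3.62 CPM in normal lung (SD, n = 4 and 2) and was 7.58-fold lower, and Cybb, an oxidase subunit of phagocytes, was 5.74-fold lower. Lyve1 and Ace, also genes of endothelium, were 49.0-fold and 68.1-fold lower. Those higher were C1qb (1.33 ± 0.36) and C1qc (0.96 ± 0.29), which encode chains of complement C1q, and Vcan (2.11 ± 0.64), a matrix proteoglycan gene that many cell types express.

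Of 21 other neutrophil genes tested, 12 were lower and 9 did not pass; the median of their log2 fold changes was -2.17. Cxcr2, the receptor that draws neutrophils to chemokines, averaged 0.498 ± 0.236 CPM in tumors and 4.86 ± 0.245 CPM in normal lung (SD, n = 4 and 2) and was 9.76-fold lower (-3.29 ± 0.50, adjusted p = 0.00145 by edgeR). Anxa1, an anti-inflammatory protein, was 5.75-fold lower, and Hdc, which makes histamine and is also a mast cell gene, was 35.7-fold lower.

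Growth factors of these cells and their receptors were mostly lower. Of 21 tested, 18 were lower, against 32.6% of all genes tested, and 1 was higher without tumor 3. Csf1, the macrophage growth factor, averaged 4.64 ± 0.550 CPM in tumors and 65.6 ± 2.64 CPM in normal lung (SD, n = 4 and 2) and was 14.1-fold lower (-3.82 ± 0.18, adjusted p = 3.16e-05 by edgeR). Tgfbr2, a receptor for TGF-β, was 21.5-fold lower. Il34, the other ligand of the CSF1 receptor, and Csf2, which encodes GM-CSF, were chosen for their roles after their values were seen and were 9.18-fold and 12.8-fold lower.

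Of 23 transcription factors, 18 were lower, among them Runx1 (14.1-fold), a regulator of blood cell development, and Stat6 (14.8-fold), which carries the signal of interleukin 4. Gfi1, a repressor in neutrophil precursors and neuroendocrine cells, was the 1 that was higher (4.71 ± 1.19, adjusted p = 0.0124 by edgeR). None was higher without normal 1, and 2 were without tumor 3. Of 23 adaptor and Fc receptor signalling genes, 19 were lower, such as the kinases Lyn (12.7-fold) and Syk (6.40-fold).

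Of 22 chemoattractant genes and receptors, 10 were lower and 12 did not pass, and 2 were higher without tumor 5. C5ar1, the receptor for complement C5a, averaged 2.06 ± 0.318 CPM in tumors and 13.5 ± 1.47 CPM in normal lung (SD, n = 4 and 2) and was 6.52-fold lower, and Cmklr1, the receptor for chemerin, was 28.9-fold lower. Of 18 lysosome, granule and oxidase genes, 12 were lower (7 without normal 1), among them the lysosomal membrane genes Lamp1 (3.46-fold) and Lamp2 (4.56-fold). In that list 1 gene was higher with DESeq2 and 2 without tumor 6.

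In the list of genes often raised in tumor macrophages, 8 of 23 were lower and 7 higher (3 without normal 1 or normal 2), with a median log2 fold change of -0.40. Both counts were near the shares over all genes tested, 32.6% lower and 31.3% higher. Mmp12, macrophage elastase, averaged 47.1 ± 31.7 CPM in tumors and 5.32 ± 0.552 CPM in normal lung (SD, n = 4 and 2) and was 8.85-fold higher (3.14 ± 0.84, adjusted p = 0.0155 by edgeR). Mmp13, a collagenase, was 5.89-fold higher and Bnip3, a gene induced by low oxygen, 3.55-fold higher. Cd274, which encodes PD-L1, was 7.96-fold lower and Vegfa 7.21-fold lower. Other cells express several of these genes, and the counts do not assign them to macrophages.

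**Figure D5:**
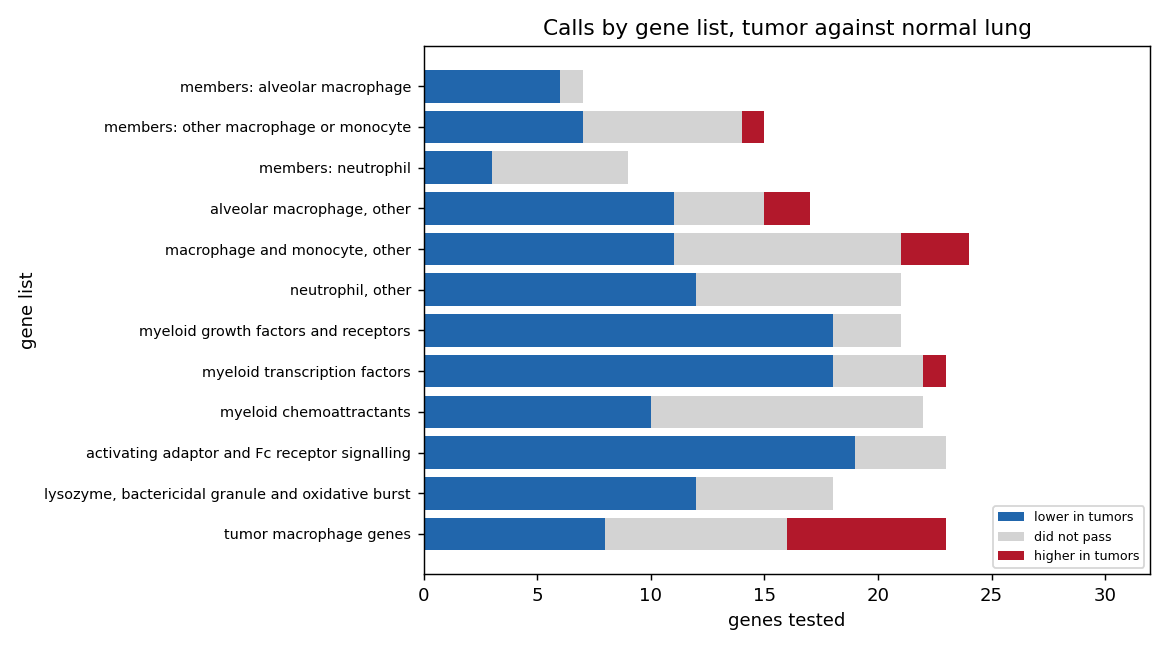
Number of genes tested in each member group and each list, with genes lower in tumors in blue, not passed in grey and higher in red. Over all genes tested 32.6% were lower and 31.3% higher; the tumor macrophage list, with 8 of 23 in blue and 7 in red, is near those shares.

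Red blood cell genes, as a sign of blood in the samples, were lower in 5 of 7 genes tested, with summed levels of 187 to 401 CPM in tumors, against 1513 and 1791 CPM in normal 1 and 2. Blood carries monocytes and neutrophils, and the part of blood in the levels of Ly6c2, Csf3r and Retnlg was not tested.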

How the data were processed

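RNA of 4 tumors and 2 normal lungs, each from a different mouse per the labels, was sequenced. The authors deposited whole-number counts per gene. Per the submitters' processing notes, the tools named are Trim Galore, Trimmomatic 0.36, STAR 2.5.4a, DESeq2 1.22.2 and R 3.5.1, and the build is mm9; for the gene annotation and the strand setting, the sources used here give nothing. The counts were tested as deposited with edgeR 4.0.16 in R 4.3.3 (quasi-likelihood test, TMM scaling, minimum count 10 and total 15), with Benjamini-Hochberg adjustment over 18027 genes and a threshold of 0.05. SE is the absolute log2 fold change over the square root of F. The biological coefficient of variation common to all genes came to 0.433. The test was checked on data simulated from its own model, with a small part of the genes changed, as many up as down. That check does not cover a comparison in which 63.9% of the genes tested pass, as here.

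The members and lists were chosen with earlier results of these data known. Every member is named, as are, from each list, up to 4 genes per direction with the smallest p among those past the threshold, with Ptprc and Hbb-b1; others are marked where named. Alternatives were other scalings, no filter, a filter of 1 CPM, DESeq2 1.42.0, limma voom 3.58.1 and leaving out each library. Shared 50-base stretches and exon overlap came from GENCODE M21 on GRCm38, which is not the authors' build.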

Additional observations from a re-analysis of the deposited data

Results flagged for a closer look

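Among the 31 members, the level of Ngp in tumor 3, 0.745 CPM, and that of Camp in tumor 3, 0.820 CPM, lay far from those of the other 3 tumors, with a gap to the nearest of them above Dixon's 95% critical value for 4 samples. Such a gap arises by chance in about 1 in 20 groups of 4. Both levels rest on few counts, 50 and 55, and no explanation was tested.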

How the results depend on the processing

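No paired analysis was possible because, per the labels, each library came from a different mouse. Of 428 values of members under alternatives, 408 kept their side of the threshold, 13 lost the call and 7 gained one. None changed direction while called. Some of the 408 changed direction without a call, such as S100a9 without tumor 6 (-0.95, against 0.39 with all libraries). Leaving out 1 library gave 13 to 18 members lower and 0 to 1 higher, with 0 without normal 1, normal 2 or tumor 3. Over all genes it gave 4278 to 6167 lower and 3373 to 5912 higher, against 5638 higher with all libraries, with 3373 without normal 1 and 3740 without normal 2. Over the distinct list genes it gave 95 to 118 lower and 3 to 14 higher, with 3 without normal 1 and 4 without normal 2. The cause was not tested. Where 1 normal library is left, it is assumed to vary like the tumors. Upper quartile scaling put the median log2 fold change of all genes at 0.14, against 0.02 with TMM. Camp and Ngp were not tested without tumor 3, nor was Camp without tumor 6. With the filter of 1 CPM, Camp, Ngp and Il1r2 were not tested. Removing 1143 rows of small, tailless and histone RNA was chosen after seeing the data.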

Other observations

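Lists of other blood cells differed in how many of their genes were lower in tumors, where 32.6% of all genes tested were lower. Of 11 dendritic cell genes, 9 were lower, with a median log2 fold change of -3.35, and of 12 T and NK cell genes 11 were lower, or 7 without normal 1, normal 2 or tumor 5. The T and NK cell genes summed to 4.44 to 12.2 CPM in tumors, against 51.9 and 64.1 CPM in normal 1 and 2. Of 8 B and plasma cell genes 5 were lower, or 2 without normal 2 and 8 without tumor 3, and their summed level in tumor 3, 89.8 CPM, was above the 72.9 CPM of normal 1. Of 8 eosinophil, mast cell and basophil genes tested 4 were lower, or 2 with a filter of 1 CPM. The platelet list held 6 genes lower and 1 higher of 10. All 8 neuroendocrine genes were higher, with a median log2 fold change of 6.82.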
